A study of Mus musculus with 4 samples.

Results

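The autophagy machinery genes described here are 40 genes that encode the core proteins of autophagosome formation and the receptors that bring cargo to it. They were chosen by symbol, without a threshold on any measured value, but with earlier results of these data known. All 40 were among the 24391 genes of the count table. RNA-Seq was performed in Beko cells, a mouse progenitor T-cell line in which Notch signaling is constitutively active. Every library came from cells exposed for 48 h to the γ-secretase inhibitor DAPT (GSI), which blocks the cleavage that releases the active Notch fragment. The 2 GSI libraries were made at the end of this exposure, and the 2 washout libraries were made from cells that were then washed and grown for another 24 h without inhibitor. The labels give the dose as 10 mg per ml, whereas the methods of the study give the same figure in μg per ml, and they state that the inhibitor was renewed once. All libraries come from 1 cell line, and the labels do not say whether replicates were separate cultures, so the p-values measure the spread between these libraries, which may be technical. No library of cells that were washed and regrown without earlier inhibitor was analysed here, so that the return of Notch activity and the additional wash and culture cannot be told apart.

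Autophagy is the process by which a cell wraps part of its cytoplasm in a double membrane, the autophagosome, and delivers it to the lysosome for breakdown. The ULK1 kinase complex starts the process, the VPS34 lipid kinase complex marks the site with a phosphoinositide, ATG9 vesicles and ATG2 proteins supply membrane and lipid, and a ubiquitin-like conjugation system attaches the small ATG8 proteins to the growing membrane. Cargo receptors bind both the ATG8 proteins and the material to be degraded. In developing T cells autophagy contributes to the turnover of mitochondria and endoplasmic reticulum, and the kinase mTORC1 restrains it when nutrients and growth signals are plentiful.

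The total counts were 29671401 and 13716199 in GSI replicates 1 and 2, and 36364200 and 14451995 in washout replicates 1 and 2. Of 9 Notch target and pathway genes listed as a check of the treatment, 8 were higher upon washout and past both thresholds of the study. The share over all genes tested was 7.74%. The median log2 fold change (log2FC) of the 9 was 2.36, and Notch3 was not called (log2FC 0.14). By DESeq2, 7 of the 9 were called higher. Ptcra, 1 of the 8, is counted again among the T progenitor markers and their higher genes. All 14 T progenitor markers were tested, and their summed level, in normalized counts scaled to the library total (CPM), was 7397 and 7927 in GSI against 6569 and 6472 upon washout, with 3 markers higher and 6 lower. The summed levels of markers of other cells were lower upon washout. The 10 myeloid and mast cell markers summed to 225 and 116 CPM in GSI and to 14.8 and 7.14 CPM upon washout. Of these markers 2 were tested and both were lower, while Elane, Lyz2, Ms4a2, Fcer1a and Cebpa had 0 counts in every library. The 7 B cell markers summed to 9.06 and 5.96 CPM in GSI and to 3.26 and 2.01 CPM upon washout (1 tested, 1 lower), with Ms4a1, Pax5 and Ebf1 at 0. The 6 stromal markers summed to 47.6 and 45.2 CPM against 27.9 and 36.5 CPM (3 tested, 2 lower), with Col3a1 and Dcn at 0. The share of counts on the ribosomal Rn45s was 1.84% and 2.69% in GSI and 1.44% and 1.66% upon washout. The part of these differences in the values of the autophagy genes was not tested.

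Upon washout, more autophagy machinery genes were lower than higher. Of the 40 genes, 37 passed the filter on low counts. Among these, 19 were downregulated and 2, Atg3 and Atg5, were upregulated at an adjusted p-value under 0.05 (quasi-likelihood test of edgeR, Benjamini-Hochberg adjustment over all 12266 genes tested), and 16 were not called. The downregulated genes came to 51.4% of the 37, beside 25.4% of all genes tested, and the upregulated genes to 5.41%, beside 27.0% of all genes tested. The thresholds of the study were an adjusted p-value under 0.05 and a log2FC above 1 or below -1. Past both in the lower direction were 4 of the 37 autophagy genes, a share no larger than the 11.7% of all genes tested. In the higher direction were 0 of the 37, beside 7.74% of all genes tested. The other 17 called genes changed by less than that fold. In edgeR at an unadjusted p under 0.05, and also by DESeq2, 2 conjugation genes and 0 of the other autophagy genes were higher. By DESeq2, 3133 of all 17049 genes fitted were higher, and the share at an unadjusted p was not computed. However, Becn1 and Wipi2 were called higher with GC content and exon length corrected for, and Bnip3 without the filter on low counts. With a replicate block Bnip3 and Tax1bp1 were called higher. The 2 washout libraries lay below the 2 GSI libraries for 21 genes and above them for 5, beside 39.1% and 38.2% of all genes tested, and the groups overlapped for 11. The median log2FC was -0.31 for the 37 genes, with quartiles of -0.68 and -0.02 and a range from -3.01 to 0.58, and 29 values were negative. Over all genes tested the median was -0.01, with quartiles of -0.55 and 0.47. In bulk RNA, fewer cells that express a gene and less RNA of it per cell cannot be told apart.

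**Figure D1:**
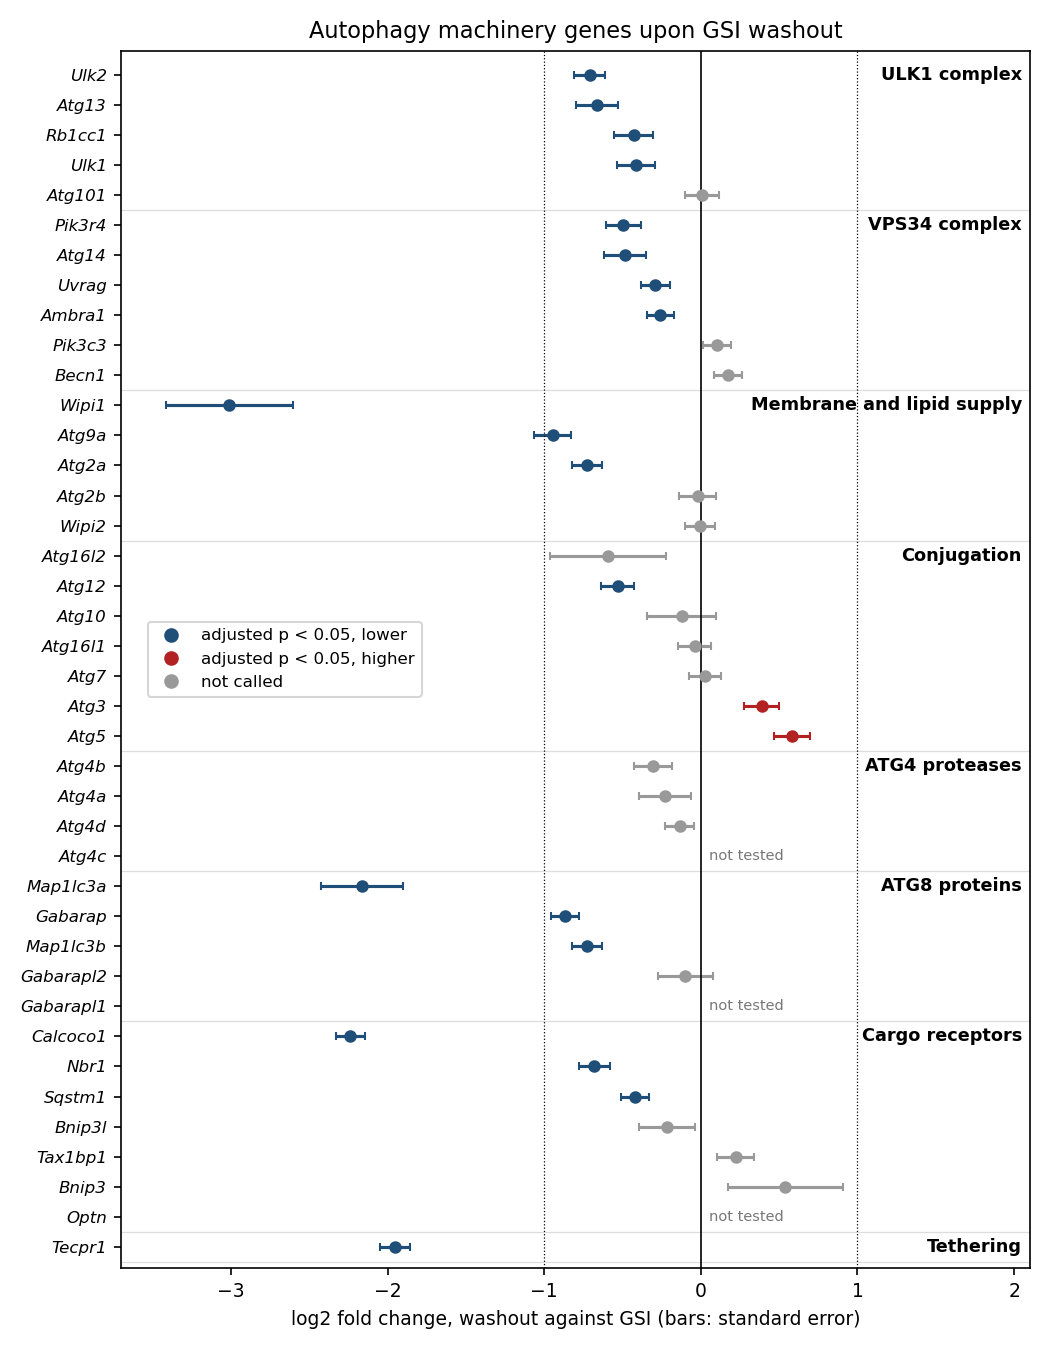
Log2 fold change of washout against GSI (x axis) for each autophagy machinery gene (y axis), grouped by role, with bars of 1 standard error from edgeR and dotted lines at -1 and 1. Wipi1, Map1lc3a, Calcoco1 and Tecpr1 lie left of -1, Atg3 and Atg5 are the 2 called genes right of 0, and Atg4c, Gabarapl1 and Optn were not tested.

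These counts depended in part on the scaling and on single libraries. With scaling by the total count alone, the median log2FC of all genes moved to -0.21 and that of the autophagy genes to -0.50. Scaling moves every gene by nearly the same amount, so the difference between both medians, -0.30 with either scaling, could not change. With total-count scaling the calls over all genes were 35.3% in the higher direction, against 51.5% with TMM scaling. Without GSI replicate 2, 12 autophagy genes were called lower and 1 higher, and without GSI replicate 1, 13 were called lower and 1 higher.

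Atg4c and Gabarapl1 were listed at 0 counts in every library, and the counts of Optn were 6 and 0 in the GSI libraries and 3 and 0 in the washout libraries. A count of 0 allows up to 3 counts, or 0.0881 to 0.223 CPM depending on the library, so that these 3 genes were not detectable or close to that limit at this depth. These limits cover counting error only, and whether the annotation or the counting set the 0 of Atg4c and Gabarapl1 was not tested.

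The genes with a log2FC below -1 were Wipi1, Calcoco1, Map1lc3a and Tecpr1. Wipi1 (chromosome 11, 109434645 to 109473281 in mm9, minus strand) encodes a protein that binds the phosphoinositide made by the VPS34 complex. Its counts were 146 and 47 in the GSI libraries and 13 and 9 in the washout libraries, or 4.56 and 3.22 CPM against 0.382 and 0.670 CPM, and was 8.06-fold lower (log2FC = -3.01, SE 0.405, adjusted p = 0.00169). Calcoco1 (chromosome 15, 102537210 to 102552609, minus strand), a receptor for parts of the endoplasmic reticulum and Golgi, was at 97.5 and 95.8 CPM in GSI and at 20.7 and 20.3 CPM upon washout, 4.72-fold lower (log2FC = -2.24, SE 0.094, adjusted p = 0.000281). The replicates of Calcoco1 lay close together in both groups, while those of Wipi1 were spread more widely at its lower counts. Map1lc3a (chromosome 2, 155102033 to 155103809, plus strand), an ATG8 protein, was at 5.47 and 5.35 CPM in GSI and at 1.26 and 1.12 CPM upon washout, 4.48-fold lower (log2FC = -2.16, SE 0.262, adjusted p = 0.00120). Tecpr1 (chromosome 5, 144955311 to 144984484, minus strand), which binds the ATG12 and ATG5 conjugate and tethers autophagosomes to lysosomes, was at 178 and 179 CPM in GSI and at 44.3 and 48.1 CPM upon washout, 3.87-fold lower (log2FC = -1.95, SE 0.096, adjusted p = 0.000281). Wipi1 and Map1lc3a rested on at most 175 counts in a library, whereas Calcoco1 and Tecpr1 had 273 counts or more in each.

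**Figure D2:**
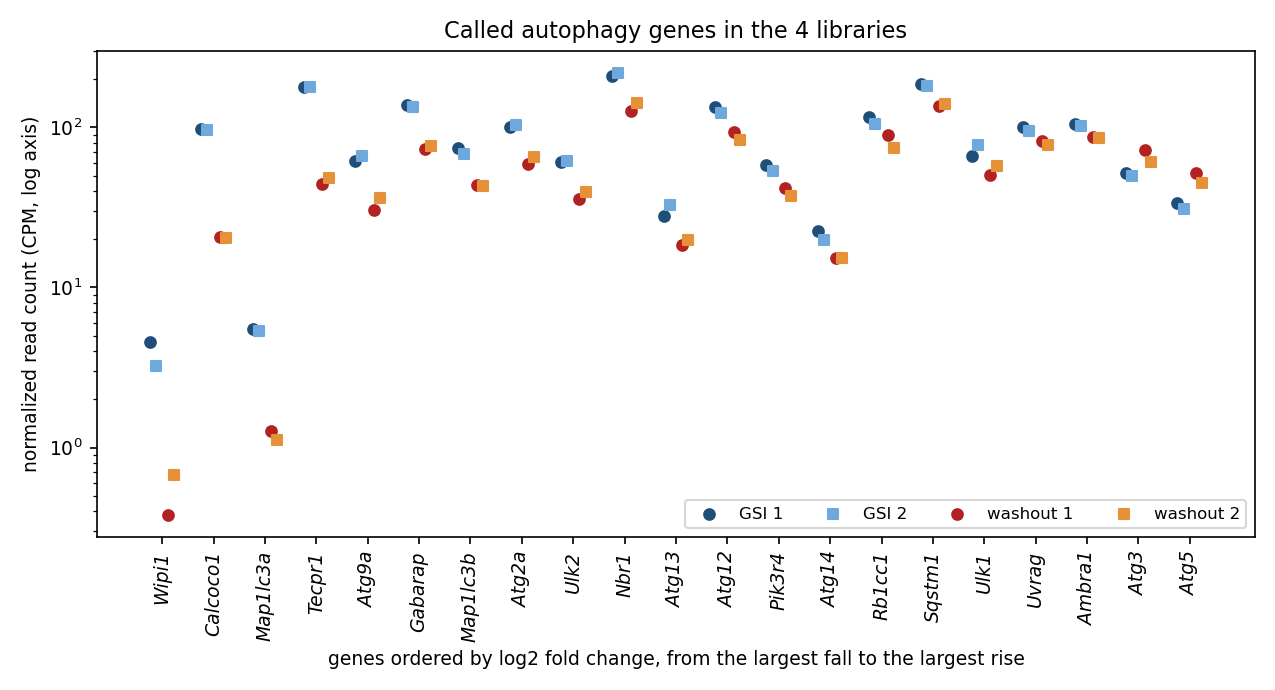
Normalized read count (CPM, log axis) of the 21 called autophagy genes in each of the 4 libraries, with genes ordered by log2 fold change from the largest fall on the left to the largest rise on the right. For the first 19 genes both washout libraries lie below both GSI libraries, and for Atg3 and Atg5 they lie above.

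The promoters of called genes past both thresholds or in the higher direction are shown because the genes moved in opposite directions. They were taken from the RefSeq promoter table (build GRCm38.p6, 250 bases before to 50 bases after the annotated start), which held 37 promoters of 33 of the 40 genes. No entry was found for Map1lc3a, Becn1, Pik3c3, Rb1cc1, Atg12, Atg16l1 and Bnip3l. Capitals mark matches, on either strand, to TGGGAA, the core letters bound by the Notch effector RBPJ, or to CACGTG, the E-box letters shared by TFEB and MYC. GTAAACA, the letters bound by FOXO factors, was searched in the same way, and none of these motifs overlaps another in the sequences shown. Wipi1 (chr11:109611340-109611639, minus strand) held 1 TGGGAA, Calcoco1 (chr15:102722129-102722428, minus strand) and Tecpr1 (chr5:144223566-144223865, minus strand) held no match, and Atg3 (chr16:45158579-45158878, plus strand) and Atg5 (chr10:44268089-44268388, plus strand) held 2 and 1 CACGTG.
Wipi1: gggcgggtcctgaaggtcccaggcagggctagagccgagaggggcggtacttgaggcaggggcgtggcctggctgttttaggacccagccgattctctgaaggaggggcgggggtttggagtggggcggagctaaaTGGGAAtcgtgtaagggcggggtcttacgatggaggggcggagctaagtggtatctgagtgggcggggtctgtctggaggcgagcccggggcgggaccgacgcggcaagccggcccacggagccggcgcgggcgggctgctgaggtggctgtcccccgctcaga
Calcoco1: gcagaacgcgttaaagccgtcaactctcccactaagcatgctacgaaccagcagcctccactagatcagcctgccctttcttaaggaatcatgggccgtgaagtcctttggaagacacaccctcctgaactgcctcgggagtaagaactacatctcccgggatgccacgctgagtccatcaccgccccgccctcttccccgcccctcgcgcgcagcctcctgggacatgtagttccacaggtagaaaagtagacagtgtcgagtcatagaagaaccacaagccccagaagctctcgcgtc
Tecpr1: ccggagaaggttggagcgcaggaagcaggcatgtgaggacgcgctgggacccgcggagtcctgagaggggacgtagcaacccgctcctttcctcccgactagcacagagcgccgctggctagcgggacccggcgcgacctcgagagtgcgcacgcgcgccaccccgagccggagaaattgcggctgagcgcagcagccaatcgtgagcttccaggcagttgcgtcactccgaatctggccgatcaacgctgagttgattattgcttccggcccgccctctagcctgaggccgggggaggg
Atg3: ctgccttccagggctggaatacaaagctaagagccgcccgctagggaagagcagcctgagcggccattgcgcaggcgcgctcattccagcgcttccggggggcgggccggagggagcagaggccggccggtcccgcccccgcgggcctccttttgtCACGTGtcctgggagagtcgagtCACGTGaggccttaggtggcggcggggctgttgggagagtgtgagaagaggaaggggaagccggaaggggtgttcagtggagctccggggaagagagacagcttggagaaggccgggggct
Atg5: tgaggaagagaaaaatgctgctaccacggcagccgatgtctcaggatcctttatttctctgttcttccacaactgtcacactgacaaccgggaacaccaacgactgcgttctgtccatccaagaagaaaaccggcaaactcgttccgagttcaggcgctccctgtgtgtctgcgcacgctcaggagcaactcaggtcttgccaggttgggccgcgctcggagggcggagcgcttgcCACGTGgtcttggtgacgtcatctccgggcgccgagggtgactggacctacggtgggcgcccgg
TGGGAA was present in 12 of the 37 promoters (32.4%), beside 25.6% of all 32851 promoters of the same length. CACGTG was present in 5 of the 37 (13.5%), beside 7.15% of all promoters. Of the genes with it, Atg3 and Atg5 were called higher, Atg14 was called lower, and Atg7 and Bnip3 were not called. GTAAACA was present in 0 of the 37, beside 3.65% of all promoters. These matches are letters in a window and not measured sites of binding.

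Of the 5 genes of the ULK1 complex, 4 were downregulated upon washout (80.0%) and 0 upregulated, with a median log2FC of -0.43. Over all genes tested, 25.4% were downregulated and 27.0% upregulated. Ulk2, one of the paired kinases, was at 61.1 and 61.6 CPM in GSI and at 35.7 and 39.5 CPM upon washout (log2FC = -0.71, SE 0.101, adjusted p = 0.00208). Atg13, the regulatory subunit, went from 27.8 and 33.0 CPM to 18.5 and 19.8 CPM (log2FC = -0.66, SE 0.135, adjusted p = 0.00792). These were the larger changes of the complex, and for both genes the libraries of the groups did not overlap. Ulk1, the other kinase, was at 65.8 and 77.5 CPM in GSI and at 50.2 and 57.4 CPM upon washout (log2FC = -0.41, SE 0.124, adjusted p = 0.0313). Rb1cc1, which encodes the scaffold FIP200, was at 116 and 104 CPM against 89.5 and 73.9 CPM (log2FC = -0.43, SE 0.124, adjusted p = 0.0279). Atg101, a partner of Atg13, was at 45.9 and 50.3 CPM in GSI and at 45.8 and 51.0 CPM upon washout, with overlapping groups (log2FC = 0.01, SE 0.109, adjusted p = 0.963). When GC content and exon length were corrected for, the log2FC of Ulk1 was -0.09 and that of Rb1cc1 -0.11, and neither was called. The calls also ended for Ulk1 without GSI replicate 2 (-0.28) or washout replicate 1 (-0.31), for Rb1cc1 without GSI replicate 1 (-0.35), GSI replicate 2 (-0.49) or washout replicate 2 (-0.28), and for Atg13 without GSI replicate 2 (-0.53).

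In the VPS34 complex, 4 of 6 genes were downregulated (66.7%, and 1 gene by DESeq2) and 0 upregulated, with a median log2FC of -0.27. Over all genes tested, 25.4% were downregulated and 27.0% upregulated. The catalytic subunit and its partner Beclin 1 were not called. Pik3c3, which encodes the kinase VPS34 itself, was at 61.2 and 59.1 CPM in GSI and at 63.3 and 66.1 CPM upon washout (log2FC = 0.10, SE 0.091, adjusted p = 0.378). Becn1, which encodes Beclin 1, was at 144 and 147 CPM in GSI and at 167 and 162 CPM upon washout (log2FC = 0.17, SE 0.089, adjusted p = 0.147). For both genes the washout libraries lay above the GSI libraries without reaching the threshold, and with scaling by the total count their log2FC was -0.10 and -0.03. Of the exon length of Becn1, 43.9% is shared with Cntd1 on the opposite strand, and the strand setting of the counting is not given in the sources used here, so its value is uncertain. With the GC and length correction Becn1 was called higher (log2FC = 0.22). Pik3r4, the regulatory subunit VPS15, was at 58.1 and 53.5 CPM against 42.0 and 37.1 CPM (log2FC = -0.50, SE 0.111, adjusted p = 0.0111). Atg14, which directs the complex to sites of autophagosome formation, was at 22.6 and 19.9 CPM against 15.2 and 15.3 CPM (log2FC = -0.48, SE 0.134, adjusted p = 0.0243). Both subunits were lower in each washout library. Uvrag, the subunit that replaces Atg14 in endosomal complexes, went from 100 and 94.7 CPM to 81.9 and 77.6 CPM (log2FC = -0.29, SE 0.092, adjusted p = 0.0381). Ambra1, a regulator that binds Beclin 1, went from 105 and 102 CPM to 87.0 and 85.8 CPM (log2FC = -0.26, SE 0.087, adjusted p = 0.0458). These calls lay close to the threshold. Leaving out any 1 of the 4 libraries ended those of Atg14 (log2FC from -0.56 to -0.39), Uvrag (-0.33 to -0.24) and Ambra1 (-0.27 to -0.23), as did DESeq2, and the call of Pik3r4 ended without GSI replicate 1 (-0.44). The log2FC of Ambra1 was -0.04 with the GC and length correction.

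Among the 5 genes of membrane and lipid supply, 3 were downregulated (60.0%, beside 25.4% of all genes tested). Wipi1 was 1 of these 3, and the other 2 genes of the group were not called. Atg9a, a lipid scramblase carried on vesicles that seed the autophagosome (chromosome 1, 75177440 to 75188497, minus strand), was at 61.4 and 66.0 CPM in GSI and at 30.4 and 35.9 CPM upon washout (log2FC = -0.95, SE 0.119, adjusted p = 0.00136). Atg2a, a protein that transfers lipid to the growing membrane, went from 101 and 104 CPM to 59.0 and 65.0 CPM (log2FC = -0.72, SE 0.096, adjusted p = 0.00162). Both kept their call in each alternative that tests for a change of any size, although the log2FC of Atg2a was -0.27 with the GC and length correction. Their relatives were not called. Atg2b, the paralog of Atg2a, was at 118 and 132 CPM in GSI and at 113 and 134 CPM upon washout (log2FC = -0.02, SE 0.119, adjusted p = 0.894). Wipi2, the WIPI protein that recruits the conjugation machinery, was at 102 and 101 CPM against 96.2 and 106 CPM (log2FC = -0.01, SE 0.095, adjusted p = 0.964). The groups overlapped for both. With the GC and length correction the log2FC was 0.24 for Atg2b, which was not called, and 0.23 for Wipi2, which was called higher (edgeR adjusted p = 0.0362).

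Both upregulated autophagy genes were among the 7 conjugation genes, of which they made up 28.6%, beside 27.0% of all genes tested. The 1 downregulated conjugation gene made up 14.3%, beside 25.4% of all genes tested. Conjugation proceeds through the E1-like ATG7, the E2-like ATG10 and ATG3, and an E3-like assembly of ATG12, ATG5 and ATG16L1. Atg5 (chromosome 10, 43988164 to 44084097, plus strand) was at 33.7 and 31.0 CPM in GSI and at 51.7 and 44.9 CPM upon washout (log2FC = 0.58, SE 0.117, adjusted p = 0.00764). Atg3 (chromosome 16, 45158898 to 45188651, plus strand) was at 52.2 and 49.6 CPM in GSI and at 71.9 and 61.0 CPM upon washout (log2FC = 0.39, SE 0.113, adjusted p = 0.0290). Atg12, which is joined to the ATG5 protein, went in the other direction, from 134 and 123 CPM to 93.8 and 83.9 CPM (log2FC = -0.53, SE 0.103, adjusted p = 0.00650). The transcripts of ATG5 and ATG12, partners in 1 conjugate, thus changed in opposite directions, with no overlap between the groups for either. The log2FC of Atg5 was 0.33 with the GC and length correction and 0.38 with total-count scaling, and it was called with both. The call of Atg3 ended with the GC and length correction (0.17), with total-count scaling (0.19), and without GSI replicate 1 (0.42), GSI replicate 2 (0.36) or washout replicate 1 (0.27). Atg7 was at 42.0 and 44.7 CPM in GSI and at 43.0 and 45.3 CPM upon washout (log2FC = 0.03, SE 0.100, adjusted p = 0.844). Atg16l1 was at 45.8 and 49.5 CPM against 43.9 and 48.8 CPM (log2FC = -0.04, SE 0.107, adjusted p = 0.771). For both genes the groups overlapped. Atg10 was at 10.3 and 7.61 CPM against 9.08 and 7.37 CPM (log2FC = -0.12, SE 0.223, adjusted p = 0.668). Atg16l2, a relative of Atg16l1, was at 3.56 and 2.60 CPM against 1.56 and 2.75 CPM (log2FC = -0.59, SE 0.372, adjusted p = 0.225), and at this depth a change of that size was within the spread between libraries.

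The ATG4 proteases trim the ATG8 proteins before conjugation and release them afterwards. Of the 4 proteases 3 were tested, and 0 were called in the quasi-likelihood test of edgeR, adjusted by Benjamini-Hochberg, or by DESeq2. At an unadjusted p under 0.05 in edgeR, 1 was lower and 0 were higher, and the share over all genes at that threshold was not computed. Atg4b, the most active family member, was at 22.3 and 22.6 CPM in GSI and at 17.6 and 18.8 CPM upon washout (log2FC = -0.31, SE 0.121, adjusted p = 0.0754). Atg4d was at 75.8 and 82.2 CPM against 71.1 and 72.5 CPM (log2FC = -0.14, SE 0.093, adjusted p = 0.263), and 31.1% of its exon length is shared with Kri1 on the opposite strand. For both genes the washout libraries lay below the GSI libraries. Atg4a was at 26.9 and 21.1 CPM against 22.3 and 18.8 CPM, with overlapping groups (log2FC = -0.23, SE 0.166, adjusted p = 0.292). Other settings called each of them lower, Atg4a with the GC and length correction (log2FC -0.48), and Atg4b (-0.51) and Atg4d (-0.34) with total-count scaling.

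The ATG8 proteins are the small ubiquitin-like proteins that are attached to the autophagosome membrane and bind cargo receptors. Of the 4 tested, 3 were downregulated and 0 upregulated, with a median log2FC of -0.80. Gabarap (chromosome 11, 69804645 to 69808453, plus strand) was at 139 and 134 CPM in GSI and at 72.9 and 76.9 CPM upon washout (log2FC = -0.87, SE 0.090, adjusted p = 0.000761). Map1lc3b (chromosome 8, 124114368 to 124121947, plus strand), which encodes the widely used autophagosome marker LC3B, was at 74.2 and 68.4 CPM in GSI and at 43.4 and 42.7 CPM upon washout (log2FC = -0.73, SE 0.096, adjusted p = 0.00157). The groups were well separated for both genes and for Map1lc3a. Gabarapl2 was at 17.1 and 15.3 CPM in GSI and at 17.1 and 12.9 CPM upon washout, with overlapping groups (log2FC = -0.10, SE 0.178, adjusted p = 0.666). Per kb of exon, Gabarap was the most abundant family member with 75.2 and 72.8 CPM per kb in GSI and 39.5 and 41.7 CPM per kb upon washout, followed by Map1lc3b with 43.4 and 40.0 against 25.3 and 24.9 CPM per kb. Gabarapl2 was at 7.37 and 6.57 against 7.37 and 5.57 CPM per kb, and Map1lc3a at 4.63 and 4.53 against 1.07 and 0.945 CPM per kb. The order of the 4 genes was the same in each library. Their sum was 131 and 124 CPM per kb in GSI and 73.3 and 73.1 CPM per kb upon washout. The share of Gabarapl2 in that sum was 5.64% and 5.31% in GSI and 10.0% and 7.61% upon washout, and that of Map1lc3a was 3.55% and 3.66% against 1.46% and 1.29%. Gabarap and Map1lc3b together made up most of the sum in both groups, with Gabarap at 57.6% and 58.8% against 53.9% and 57.0%. Whether reads of these short transcripts were shared with near-identical copies elsewhere in the genome was not tested.

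**Figure D3:**
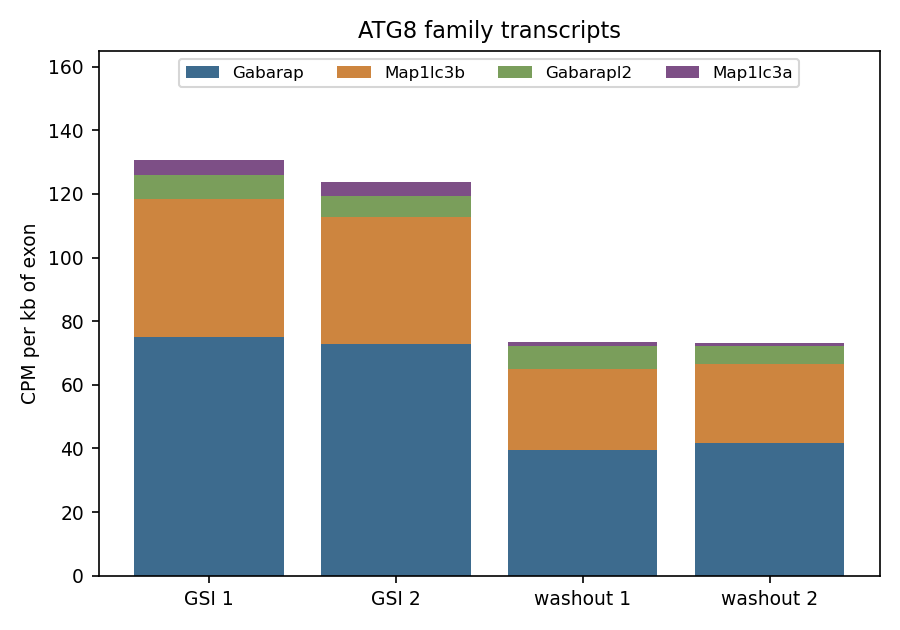
Stacked level of the 4 detected ATG8 family transcripts (CPM per kb of exon, y axis from 0) in each of the 4 libraries. The stacks reach 131 and 124 in GSI and 73.3 and 73.1 upon washout, and the order of the family members is the same in each library.

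Of the 6 cargo receptors tested, 3 were downregulated and 0 upregulated, with a median log2FC of -0.32. Calcoco1 had the largest fall, as given above. Nbr1, a receptor for ubiquitinated cargo, was at 210 and 219 CPM in GSI and at 127 and 141 CPM upon washout (log2FC = -0.68, SE 0.100, adjusted p = 0.00237). Sqstm1, which encodes the receptor p62, went from 188 and 181 CPM to 135 and 141 CPM (log2FC = -0.42, SE 0.091, adjusted p = 0.0100). The call of Sqstm1 ended without GSI replicate 1 (log2FC -0.40) or GSI replicate 2 (-0.43), and 17.3% of its exon length is shared with 3010026O09Rik on the opposite strand. Tax1bp1, a further ubiquitin-binding receptor, was at 285 and 252 CPM in GSI and at 333 and 295 CPM upon washout (log2FC = 0.22, SE 0.117, adjusted p = 0.158). Its washout libraries lay above the GSI libraries by less than the test required. The mitochondrial receptors were spread widely between replicates. Bnip3 was at 13.1 and 22.7 CPM in GSI and at 17.9 and 34.2 CPM upon washout, with replicate 2 higher in both groups (log2FC = 0.54, SE 0.368, adjusted p = 0.260). Bnip3l, which encodes the mitophagy receptor NIX, was at 93.9 and 80.7 CPM in GSI and at 88.4 and 61.4 CPM upon washout, with replicate 2 lower in both groups (log2FC = -0.22, SE 0.181, adjusted p = 0.355). Without washout replicate 1 both were called, Bnip3 with a log2FC of 0.97 and Bnip3l with a log2FC of -0.51. Bnip3 was also called without the filter on low counts (0.58), and Bnip3l with the GC and length correction (-0.41). With a replicate block Bnip3 was called higher and Bnip3l lower.

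The balance between related genes was compared as the log2 ratio of their CPM per kb of exon. In 6 of 7 pairs the ratios of the washout libraries did not overlap those of the GSI libraries. Of all single genes tested, 39.1% were without overlap in the lower direction and 38.2% in the higher direction. The share over other pairs of genes was not computed. The smallest exact two-sided permutation p-value that 2 against 2 libraries allow is 0.3333, so the ratios are given as a description. Atg2a was slightly above Atg2b in GSI (log2 ratios of 0.19 and 0.08) and below it upon washout (-0.51 and -0.62). In CPM without the exon length, Atg2a was below Atg2b in GSI as well (101 and 104 against 118 and 132). Exon lengths came from GENCODE vM1 while reads were counted on the iGenomes annotation, so levels per kb compare only roughly between genes. Atg9a stood above Atg9b, a second ATG9 gene that is not among the 40, by 2.80 and 2.63 in GSI and by 0.15 and 0.36 upon washout. Both Atg9 transcripts were therefore at like levels per kb after washout, since Atg9b rose while Atg9a fell. The log2 ratio of Wipi1 over Wipi2 was -3.61 and -4.11 in GSI and -7.11 and -6.45 upon washout, and that of Map1lc3a over Map1lc3b was -3.23 and -3.14 against -4.57 and -4.72. Gabarap over Gabarapl2 went from 3.35 and 3.47 to 2.42 and 2.90, and Ulk1 over Ulk2 from 0.30 and 0.53 to 0.69 and 0.74. The fitted change of the ratio of Ulk1 over Ulk2 was 0.30, and 0.63 with the GC and length correction, and that of Gabarap over Gabarapl2 was -0.77, and -0.50 without washout replicate 1. For Atg16l1 over Atg16l2 the ratios overlapped, at 2.37 and 2.93 in GSI and 3.50 and 2.83 upon washout.

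**Figure D4:**
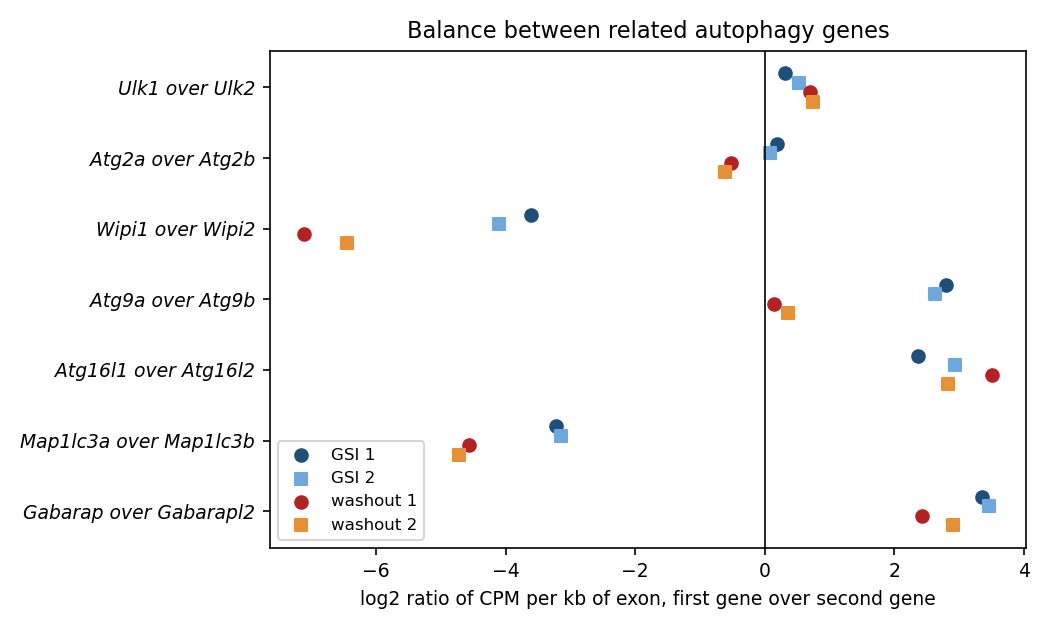
Log2 ratio of CPM per kb of exon between related genes (x axis) for 7 pairs (y axis), with 1 point per library. At the exon lengths used, Atg2a over Atg2b crosses 0 between GSI and washout, and Atg9a over Atg9b moves from 2.80 and 2.63 to 0.15 and 0.36. The groups overlap only for Atg16l1 over Atg16l2.

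Genes of neighboring steps were examined from lists of textbook members. Of 20 other autophagy genes, 18 were tested, 2 were upregulated (11.1%) and 4 downregulated (22.2%), with a median log2FC of -0.09. The shares over all genes tested were 27.0% and 25.4%. Atg9b was at 8.44 and 10.2 CPM in GSI and at 26.2 and 26.8 CPM upon washout (log2FC = 1.52, SE 0.149, adjusted p = 0.000649). Fyco1, an adaptor that links autophagosomes to kinesin motors, was at 46.7 and 53.0 CPM against 14.5 and 18.3 CPM (log2FC = -1.62, SE 0.151, adjusted p = 0.000581). Ccpg1, a receptor for the endoplasmic reticulum, was at 50.3 and 46.0 CPM against 21.2 and 22.1 CPM (log2FC = -1.16, SE 0.110, adjusted p = 0.000594), although 62.8% of its exon length is shared with Dyx1c1 in the annotation. Of 15 genes of fusion with the lysosome, 14 were tested, 3 were downregulated (21.4%) and 0 upregulated, with a median log2FC of -0.24. By DESeq2 these numbers were also 3 and 0. At an unadjusted p under 0.05 in edgeR they were 5 and 0, and the share over all genes at that threshold was not computed. Lamp2, a lysosomal membrane protein, had the largest fall of these, from 79.1 and 65.8 CPM to 53.6 and 36.2 CPM (log2FC = -0.68, SE 0.195, adjusted p = 0.0271), and its call ended without GSI replicate 1 (-0.55).

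Of 31 genes of the mTORC1 and AMPK pathways, which restrain and promote autophagy, 30 were tested, with a median log2FC of 0.03. Upregulated were 5 (16.7%) and downregulated 6 (20.0%), beside 27.0% and 25.4% of all genes tested. The 3 sestrins, which restrain mTORC1, were each lower. Sesn1 was at 224 and 194 CPM in GSI and at 93.7 and 89.3 CPM upon washout (log2FC = -1.19, SE 0.109, adjusted p = 0.000548). Sesn2 was at 52.0 and 58.6 CPM against 21.4 and 29.4 CPM (log2FC = -1.13, SE 0.168, adjusted p = 0.00243), and Sesn3 at 126 and 134 CPM against 56.0 and 50.9 CPM (log2FC = -1.28, SE 0.0997, adjusted p = 0.000397). In each sestrin gene both washout libraries lay below both GSI libraries. Prkaa2, a catalytic subunit of AMPK, was at 60.9 and 59.4 CPM against 22.7 and 16.4 CPM (log2FC = -1.60, SE 0.162, adjusted p = 0.000704). Eif4ebp1, a translation repressor that mTORC1 phosphorylates, had the largest rise of these, from 12.9 and 14.2 CPM to 55.9 and 80.6 CPM (log2FC = 2.33, SE 0.196, adjusted p = 0.000450). Under the fold threshold, Akt1s1 (log2FC 0.68), Rheb (0.72), Lamtor3 (0.46) and Rps6kb1 (0.46) were called higher. Ddit4 (-0.92) and Flcn (-0.35) were called lower. Of 10 transcription factors that act on autophagy genes, 8 were tested, 1 was upregulated (12.5%) and 3 downregulated (37.5%), with a median log2FC of -0.12. Tfeb, a factor for lysosome and autophagy genes, was at 12.7 and 8.57 CPM in GSI and at 3.91 and 2.31 CPM upon washout (log2FC = -1.73, SE 0.320, adjusted p = 0.00548). Foxo3, a forkhead factor with autophagy genes among its known targets, was at 254 and 271 CPM against 99.5 and 128 CPM (log2FC = -1.21, SE 0.141, adjusted p = 0.00107). Atf4, the main factor of the integrated stress response, was at 163 and 181 CPM against 373 and 506 CPM (log2FC = 1.35, SE 0.165, adjusted p = 0.00123). Tfeb and Foxo3 were lower and Atf4 was higher in every washout library than in either GSI library.

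**Figure D5:**
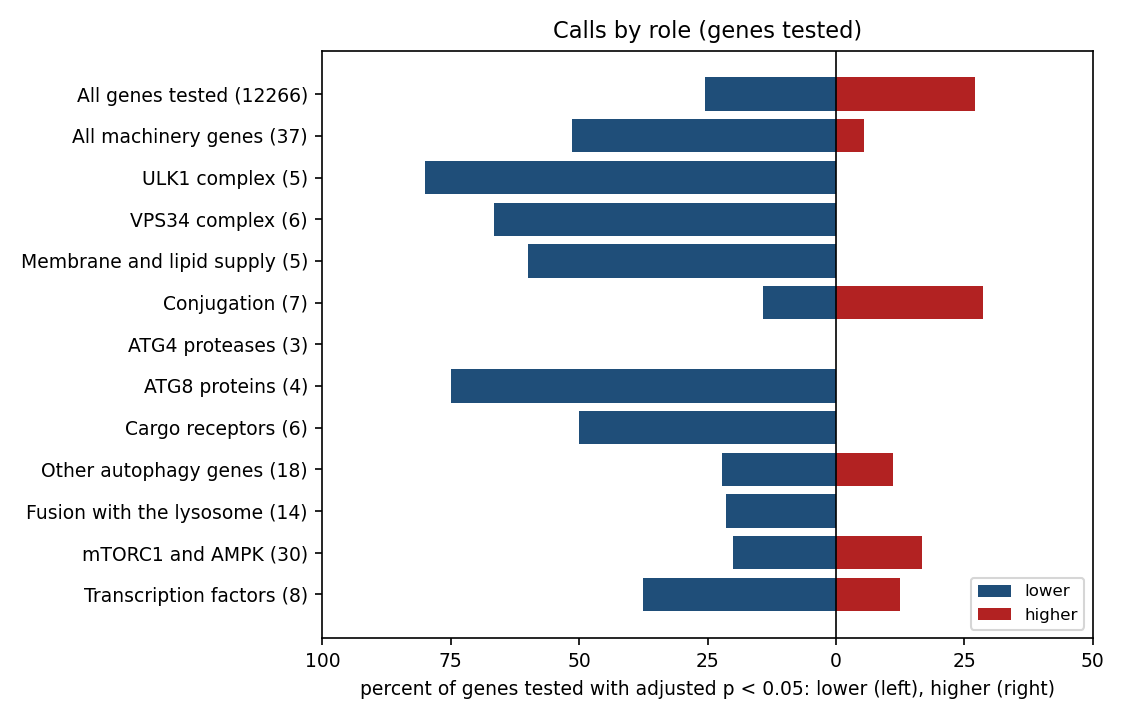
Percent of the tested genes that were lower (bars to the left of 0) or higher (bars to the right) upon washout at an adjusted p-value under 0.05, for all genes tested, the autophagy machinery genes, their roles and 4 lists of neighboring steps, with the number tested in parentheses. The bar of the 37 autophagy machinery genes reaches 51.4% on the lower side and 5.41% on the higher side, beside 25.4% and 27.0% of all genes tested, and tethering, with 1 gene, is not drawn.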

How the data were processed

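RNA-Seq libraries were prepared from total RNA of Beko cells with a stranded kit that depletes ribosomal RNA. Adapter trimming by the authors used trimGalore, alignment to mm9 used HISAT2 (version 2.2.1 in the submitters' processing notes, which also name DESeq2 1.24.0), and summarizeOverlaps assigned reads to the genes of the iGenomes annotation. What was deposited is the raw read count of each gene in each library, not normalized. The strand setting and the overlap mode are not given in the sources used here, so that genes sharing exon sequence with a neighbor are uncertain.

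The comparison of counts used edgeR 4.0.16 (R 4.3.3, filterByExpr, TMM factors, quasi-likelihood test without covariates, Benjamini-Hochberg adjustment over all 12266 genes tested), 2 washout against 2 GSI libraries. CPM were scaled to the library total and the TMM factor. The standard error (SE) of a log2FC was obtained by dividing its value by the root of the F statistic. A gene was called at an adjusted p under 0.05, and the study's fold threshold, a log2FC of 1 in size, was counted in addition. Replicates differed by more than sampling noise (chi-square per degree of freedom 18.2 in GSI and 28.5 upon washout). Positions, exon length and GC content came from GENCODE vM1 on mm9, which matched 21974 of the 24391 genes and all 40 autophagy genes.

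The 40 genes were listed by symbol, without a threshold on measured values, but they, their roles and the other lists were chosen with earlier results of these data known. Every autophagy gene is accounted for, and of the lists of neighboring steps the genes past both thresholds and those with the largest called rise and fall are named. Notch3, the marker genes at 0 counts, the other called genes of mTORC1 and AMPK, and genes sharing exons with a listed gene were named in addition, after their values were seen. Alternatives were DESeq2 1.42.0, other scalings, other filters, a replicate block, a per-library correction for GC content and exon length (95.2% of the genes tested), thinning to the smallest library, glmTreat against the fold threshold, and leaving out each library in turn. The code was tested on simulated data. One further list of markers is not reported here.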

Additional observations from a re-analysis of the deposited data

How the results depend on the processing

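Each gene was refitted under 14 alternatives that test for a change of any size (glmTreat, which tests against the fold threshold, left 4 genes lower and 0 higher), and with 1 library left out the lone library of a group is assumed to vary like those of the other group. Of the 21 called autophagy genes, 12 kept their call in each of these that could be run (13 for Wipi1, which at least 10 counts in every library removed), 9 lost it in 1 or more, and 0 reversed. Of the 16 not called, 10 were called in their own direction in 1 or more, and Wipi2 and Atg2b were called with a reversed sign. The number called lower ranged from 12 to 16 with 1 library left out, and the number called higher from 1 to 2. It was 1 with total-count scaling, 4 with a replicate block (Tax1bp1 and Bnip3 added) and 7 with the GC and length correction and replicate block. The labels do not say whether equal replicate numbers mark paired libraries, and the main fit has no replicate block. Replicate 1 was the deeper library in both groups, and the deviations of both replicates 1 correlated at 0.497. The block moved the calls over all genes from 3315 higher and 3120 lower to 4243 and 4216. With the block Atg4b, Atg16l2 and Bnip3l were called lower. The median log2FC was -0.50 with total-count scaling and -0.36 after thinning, also with the block. Genes that were not called changed sign as follows, with the cause not tested. With total-count scaling the log2FC was -0.19 for Atg101, -0.17 for Atg7, -0.10 for Pik3c3 and -0.026 for Becn1. With at least 10 counts it was -0.031 for Atg101 and -0.012 for Atg7. With the GC and length correction it was 0.24 for Atg2b, 0.23 for Wipi2, 0.12 for Atg16l1 and 0.055 for Atg4d, and with the replicate block added 0.23, 0.23, 0.12 and 0.06. For Wipi2 it was 0.011 with DESeq2, 0.03 without the filter, and 0.007 after thinning with and without the block, and for Atg2b 0.015 without the filter. With 1 library left out it ranged from -0.064 to 0.091 for Atg101, -0.025 to 0.082 for Atg7, -0.13 to 0.10 for Atg2b, -0.063 to 0.072 for Wipi2, -0.10 to 0.042 for Atg16l1, -0.30 to 0.12 for Atg10, -0.32 to 0.091 for Gabarapl2 and -0.51 to 0.031 for Bnip3l. The alternatives for gene ratios and neighboring steps were chosen after seeing the data. Of the 12 genes of neighboring steps given with library values, 11 kept their call in each. At 2 libraries a group, p-values of single permutation tests cannot pass 0.05.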
